A study of Mus musculus with 6 samples.

Results

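Cells meet a shortage of amino acids or an overload of unfolded protein in the endoplasmic reticulum (ER) with 2 linked transcription programs, and the mRNAs of 33 genes of these programs were measured in the striatum of mice that overexpress Shank3, a scaffold protein of the excitatory postsynapse. The genes were chosen by symbol, for their known roles and with earlier results of these data known. They are treated as an ATF4 arm of 13 genes and an ER folding arm of 20 genes. Each was found in the deposited table by its Ensembl identifier, among 46078 genes in all, and all 33 were among the 17605 genes whose normalized read counts averaged 10 or more over the 6 libraries. RNA sequencing had been done on whole dissected striatum from 3 WT mice and 3 EGFP-Shank3 transgenic mice (Shank3 TG, here TG), all male, 12 weeks old and on a C57BL/6J background, with 1 library per mouse. The transgene carries Shank3 fused to enhanced green fluorescent protein, and the promoter that drives it is not given in the sources used here. All mice were anesthetized with isoflurane before dissection, and the labels name neither litters nor the day of dissection.

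The integrated stress response starts with kinases that phosphorylate the translation initiation factor eIF2. General protein synthesis then slows, while the mRNA of the transcription factor ATF4 is translated more, and ATF4 switches on genes for amino acid synthesis, amino acid uptake and feedback. The unfolded protein response starts at the ER membrane with the sensors IRE1 (Ern1), PERK and ATF6, and its transcription factors XBP1 and ATF6 switch on chaperones, folding enzymes and the machinery that returns misfolded protein to the cytosol for degradation. PERK is also an eIF2 kinase, so that ER stress feeds into the ATF4 arm. Because ATF4 is controlled largely by translation and XBP1 by splicing, the amount of either mRNA is only a partial readout of the activity of the factor.

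DNA elements of both programs were found beside several of the genes. Promoter windows from RefSeq (GRCm38.p6, 250 bases before to 50 after each transcription start) were at hand for 29 of the 33 genes, and Atf6, Slc7a5, Hyou1 and Manf had none. The ER stress response element (ERSE) was searched on both strands as CCAAT, then 9 bases of any kind, then CCACG. The shorter element ERSE-II was searched as ATTGG, then any base, then CCACG, and the C/EBP-ATF response element (CARE), which ATF4 binds with a C/EBP partner, as TGATG, then any base, then AA. A gene was counted when any of its windows held a match. ERSE was present in 7 of 17 ER folding genes and in 0 of 12 ATF4 arm genes, against 0.137% of all 27025 genes with a window. ERSE-II was present in 2 of 17 and 0 of 12, against 0.0444%. CARE was present in 4 of 12 ATF4 arm genes and in 1 of 17 ER folding genes, against 4.51% of all genes with a window. The genes were chosen for known roles in these programs, so that these shares are a description and not a test. A match describes the letters only, and a gene with no match may carry a variant or an element outside the window. Elements of other kinds were not searched. The matches follow with 6 bases on either side, read 5′ to 3′ on the strand that carries the motif, with the motif in capitals and its coordinates in GRCm38.p6.

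Hspa5, ERSE, chr2:34772025-34772043, + strand: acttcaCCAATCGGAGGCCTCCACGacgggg
Hsp90b1, ERSE, chr10:86705638-86705656, - strand: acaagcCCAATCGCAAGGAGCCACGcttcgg
Hsp90b1, ERSE, chr10:86705533-86705551, + strand: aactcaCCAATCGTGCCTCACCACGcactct
Calr, ERSE, chr8:84847075-84847093, + strand: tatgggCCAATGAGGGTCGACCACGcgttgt
Canx, ERSE, chr11:50325800-50325818, - strand: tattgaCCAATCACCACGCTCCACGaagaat
Pdia6, ERSE, chr12:17266491-17266509, + strand: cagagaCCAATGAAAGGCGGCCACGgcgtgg
Dnajc3, ERSE, chr14:118937827-118937845, + strand: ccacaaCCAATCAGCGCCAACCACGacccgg
Creld2, ERSE, chr15:88819520-88819538, - strand: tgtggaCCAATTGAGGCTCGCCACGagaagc
Dnajb11, ERSE-II, chr16:22857852-22857862, + strand: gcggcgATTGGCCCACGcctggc
Herpud1, ERSE-II, chr8:94386377-94386387, + strand: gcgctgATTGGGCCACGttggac
Herpud1, CARE, chr8:94386317-94386324, - strand: gcgggcTGATGCAAcccgcc
Asns, CARE, chr6:7693225-7693232, - strand: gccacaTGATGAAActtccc
Trib3, CARE, chr2:152344039-152344046, + strand: cccggcTGATGTAAacctga
Chac1, CARE, chr2:119351049-119351056, - strand: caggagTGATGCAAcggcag
Slc7a11, CARE, chr3:50443672-50443679, - strand: tgtggcTGATGCAAacctgg
Slc7a11, CARE, chr3:50443653-50443660, + strand: gcatgaTGATGCAAattctc

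In the ERSE matches the first 5 capitals are the site for the factor NF-Y and the last 5 are the part to which ATF6 binds. Hsp90b1 carried 2 ERSE matches in opposite directions, Slc7a11 carried 2 CARE matches in opposite directions, and Herpud1 carried an element of each arm. The 250 bases before the start of Hspa5, the ER chaperone with the largest difference between the genotypes, and of Asns, the ATF4 arm gene whose 3 TG libraries all exceeded the 3 WT libraries, are given in full, in the direction of transcription. The start is that of RefSeq, and GENCODE begins both genes earlier, so that the element of each lies within the GENCODE span of the gene.

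Hspa5 promoter, chr2:34771840-34772089, + strand: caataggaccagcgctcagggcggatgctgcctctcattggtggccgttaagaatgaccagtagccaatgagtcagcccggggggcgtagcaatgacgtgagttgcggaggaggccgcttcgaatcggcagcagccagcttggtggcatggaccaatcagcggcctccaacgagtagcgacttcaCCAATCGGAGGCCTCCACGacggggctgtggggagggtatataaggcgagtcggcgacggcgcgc
Asns promoter, chr6:7693210-7693459, - strand: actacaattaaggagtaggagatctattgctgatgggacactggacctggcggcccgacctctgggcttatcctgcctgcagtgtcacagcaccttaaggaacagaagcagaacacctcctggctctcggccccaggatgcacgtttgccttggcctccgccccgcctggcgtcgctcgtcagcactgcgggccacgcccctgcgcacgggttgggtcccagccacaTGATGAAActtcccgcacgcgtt

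The labels were checked first with the overexpressed gene. Shank3 (ENSMUSG00000022623, chr15:89499623-89560261, + strand; gene positions here and in what follows are those of GENCODE M21 on GRCm38) had 29891, 28308 and 26044 normalized read counts in TG replicates 1, 2 and 3 and 13807, 12918 and 13865 in WT replicates 1, 2 and 3, and was 2.07-fold higher in TG mice. It was the 1 gene of 17605 (0.00568%) with an adjusted P value under 0.05 by limma with Benjamini-Hochberg adjustment (adjusted P = 7.04e-05), and DESeq2 called 7 genes (0.0398%). Between 27689589 reads (WT replicate 1) and 36647626 reads (TG replicate 1) fell on genes per library. The markers of medium spiny neurons, the main cell type of the striatum, were present in every library, with summed normalized read counts of 109199 to 152915 in TG and 132082 to 151680 in WT mice, and TG replicate 1 was the lowest. The same library was the highest for choroid plexus markers, with a sum of 28666 against 8044 to 9372 in the other 5 libraries, and its Ttr, the transthyretin made by choroid plexus, was at 13701 against 119.7 to 1122. In whole tissue, fewer cells of a type and less RNA per cell cannot be told apart.

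The 33 genes spanned a wide range of abundance. Per kilobase of annotated exon, the level was highest for the calcium-binding chaperones Calr (4134 normalized read counts per kb, mean of 6 libraries) and Canx (2205), followed by Hspa5 (1868), Pdia3 (1750) and Hsp90b1 (1659). Over the 6 libraries the range of Calr was clear of that of Canx, but the range of Hspa5 overlapped those of Canx, Pdia3 and Hsp90b1, so that its place among these 4 genes was not resolved, and neither was the order of Asns (931), Psat1 (926) and Phgdh (901). Atf4 (1267) was the most abundant mRNA of its arm. The lowest levels were those of Mthfd2 (69.2), Ern1 (61.1) and Trib3 (19.2), of which the first 2 overlapped, and the fewest reads on a member in any library were the 28 reads on Trib3.

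**Figure D1:**
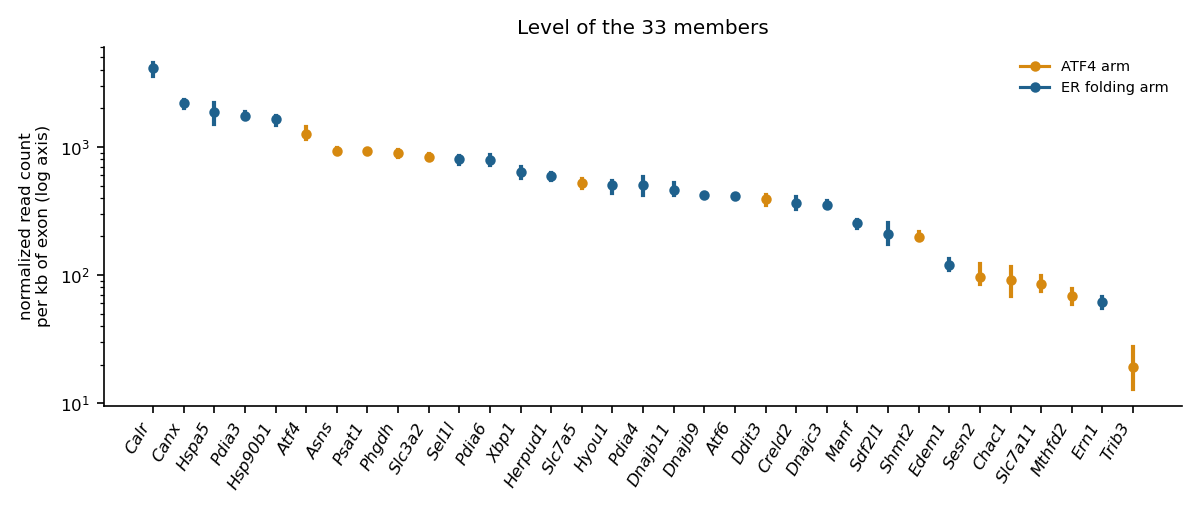
Normalized read counts per kilobase of GENCODE exon (log axis) for the 33 genes, ordered by the mean of the 6 libraries (points), with lines from the lowest to the highest library. Calr stands highest at 4134 and Trib3 lowest at 19.2, and the ATF4 arm (orange) holds 5 of the 6 lowest genes.

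In the ATF4 arm no shared difference between the genotypes was seen. By limma 0 of 13 genes passed an adjusted P value of 0.05, and 0 of 13 had an unadjusted P value under 0.05, against 1.98% of all genes tested that were higher and 2.33% that were lower in TG mice at that level. edgeR and DESeq2 likewise gave 0 of 13 at either threshold. The difference (log2 of TG over WT, on the scale of normalized read count + 1) was positive for 5 genes and negative for 8, with a median of -0.04, against a median of 0.00 and 49.2% positive over all genes tested. The count of positive genes was 2 without TG replicate 1 and between 4 and 7 when another library was left out.

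Of the transcription factors and the feedback kinase, Atf4 itself (ENSMUSG00000042406, chr15:80255184-80257541, + strand) had 3369, 2699 and 2915 normalized read counts in TG replicates 1 to 3 and 3108, 2943 and 2891 in WT replicates 1 to 3. The groups overlapped throughout, with TG mice holding both the highest and the lowest value, and the difference was 0.00 (95% interval -0.16 to 0.17), or -0.09 without TG replicate 1. Ddit3, which encodes the pro-apoptotic factor CHOP, had 704, 605 and 628 in TG and 728, 722 and 671 in WT mice. TG replicate 1 lay among the WT libraries and the other 2 below them, for a difference of -0.13 (SE 0.07, unadjusted P = 0.103 by limma). Its exons overlap those of Mars on the opposite strand over 3.97% of their length and a second annotation entry of the same name over 6.13%, and the strand setting of the counting was not given in the sources used here.

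Trib3 (ENSMUSG00000032715, chr2:152337422-152344032, - strand), a pseudokinase that ATF4 and CHOP induce and that restrains them, had the largest difference of the 33 genes and the fewest reads. The values were 34.3, 40.5 and 27.3 normalized read counts in TG replicates 1 to 3 and 58.4, 44.0 and 40.3 in WT replicates 1 to 3. TG replicate 2 was just above WT replicate 3, and WT replicate 1 was the highest of the 6. The difference was -0.47 (SE 0.22, 95% interval -0.96 to 0.01, unadjusted P = 0.0562 and adjusted P = 0.971 by limma), and -0.32 without WT replicate 1.

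Among the enzymes of amino acid and folate metabolism, Asns (ENSMUSG00000029752, chr6:7675169-7693254, - strand), which makes asparagine and is a standard ATF4 target, was the 1 gene of the arm whose TG libraries all lay above the WT libraries. It had 2706, 2594 and 2597 normalized read counts in TG and 2508, 2481 and 2396 in WT mice. An exact two-sided permutation test gave P = 0.1, the smallest value that 3 against 3 libraries allow. The difference was 0.10 (SE 0.05, unadjusted P = 0.0611 by limma), or 1.07-fold, and was positive under every alternative tried. Of all genes tested, 5.06% had every TG library above every WT library and 5.05% had every TG library below.

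Phgdh (ENSMUSG00000053398, chr3:98313170-98339990, - strand), the first enzyme of serine synthesis, was the 1 gene of the arm that was lower in all TG libraries. It had 2217, 2224 and 2079 in TG and 2232, 2347 and 2338 in WT mice, so that TG replicate 2 and WT replicate 1 nearly touched. The difference was -0.09 (SE 0.05, unadjusted P = 0.116 by limma; exact permutation P = 0.1). Psat1, the next enzyme of that pathway, lay at 3732 to 3999 in TG and 3903 to 4092 in WT mice (-0.05), and the groups overlapped. Shmt2, which passes the carbon of serine to mitochondrial folate, lay at 579 to 668 in TG and 591 to 665 in WT mice (-0.04), and Mthfd2, which acts next on that folate, at 208 to 271 in TG and 225 to 267 in WT mice (-0.02). The differences of Shmt2 and Mthfd2 changed sign when single libraries were left out, and TG replicate 1 was the highest library of both genes.

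Chac1, which breaks down glutathione, had the largest SD between mice of a genotype among the 33 genes, with 188, 112 and 141 normalized read counts in TG and 174, 170.2 and 119 in WT mice. Each genotype held a high and a low library, and the 95% interval of the difference reached from -0.52 to 0.36. Sesn2, a leucine sensor that restrains mTORC1, had 425, 307 and 336 in TG and 312, 335 and 298 in WT mice. TG replicate 1 stood above the other 5 libraries, which overlapped, and the difference of 0.16 was 0.03 without that library.

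The amino acid transporters lay close together in both genotypes. Slc7a11, the cystine carrier, had 1103, 1239.8 and 1047 normalized read counts in TG and 1115, 1361 and 1187 in WT mice, where TG replicates 1 and 3 lay below the WT libraries and TG replicate 2 among them, for a difference of -0.11 (SE 0.08). The leucine carrier Slc7a5 lay at 1765 to 2083 in TG and 1802 to 2095 in WT mice (0.00, 95% interval -0.16 to 0.16). Slc3a2, the heavy chain that pairs with both carriers, lay at 2778 to 3086 in TG and 2766 to 2997 in WT mice (0.02, 95% interval -0.10 to 0.14). Both of the last were positive with all 6 libraries and negative without TG replicate 1 or without WT replicate 1.

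**Figure D2:**
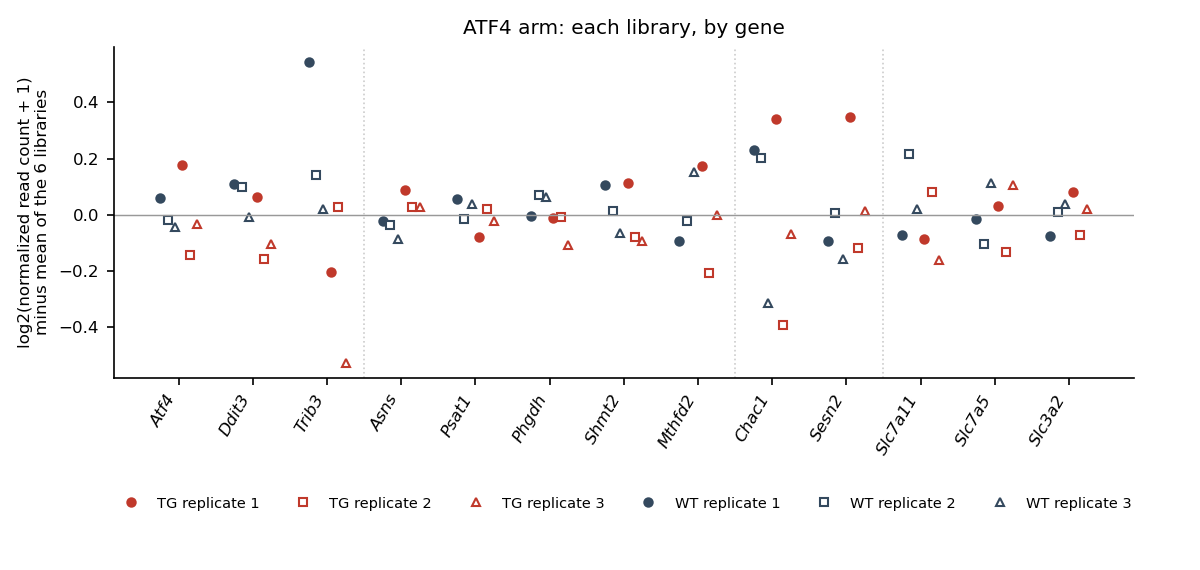
The 13 genes of the ATF4 arm, each library as log2(normalized read count + 1) minus the mean of the 6 libraries; red, TG; dark blue, WT; filled circles are replicate 1, and dotted lines part the roles. TG replicate 1 is the highest library for 7 of 13 genes, and the groups overlap for all but Asns and Phgdh.

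Over the arm, TG replicate 1 was the highest of the 6 libraries for 7 of 13 genes (Atf4, Asns, Chac1, Sesn2, Shmt2, Mthfd2 and Slc3a2) and TG replicate 2 was the lowest for 5. Over all genes tested, TG replicate 1 was the highest for 17.8%. Its choroid plexus markers were also the highest and its medium spiny neuron markers the lowest, as given above, and their part in these values was not tested.

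In the ER folding arm all 20 genes had a positive difference, but none passed the test, and the shared direction depended on single libraries. By limma 0 of 20 genes had an adjusted P value under 0.05 (smallest adjusted P = 0.971), as with edgeR and DESeq2, and 2 of 20, Hspa5 and Dnajb9, had an unadjusted P value under 0.05, against 1.98% of all genes tested that were higher at that level. With edgeR and with DESeq2 that count was 1, but the gene differed. It was Dnajb9 with edgeR (unadjusted P = 0.0199, Hspa5 0.0565) and Hspa5 with DESeq2 (unadjusted P = 0.0193, Dnajb9 0.0782). Every TG library lay above every WT library for 2 of 20, Hsp90b1 and Dnajb9, and below for 0, against 5.06% and 5.05% of all genes tested. The median difference was 0.07 on the log2 scale and the range 0.01 to 0.22, while the median SD between mice of a genotype was 0.10 for these genes. The number of positive genes was 11 of 20 without WT replicate 1, 13 without TG replicate 1 and 19 without WT replicate 3. Hspa5, Hsp90b1, Canx, Pdia3, Pdia6, Dnajb9, Edem1, Sel1l and Ern1 were positive under every alternative tried, and the other 11 were not.

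**Figure D3:**
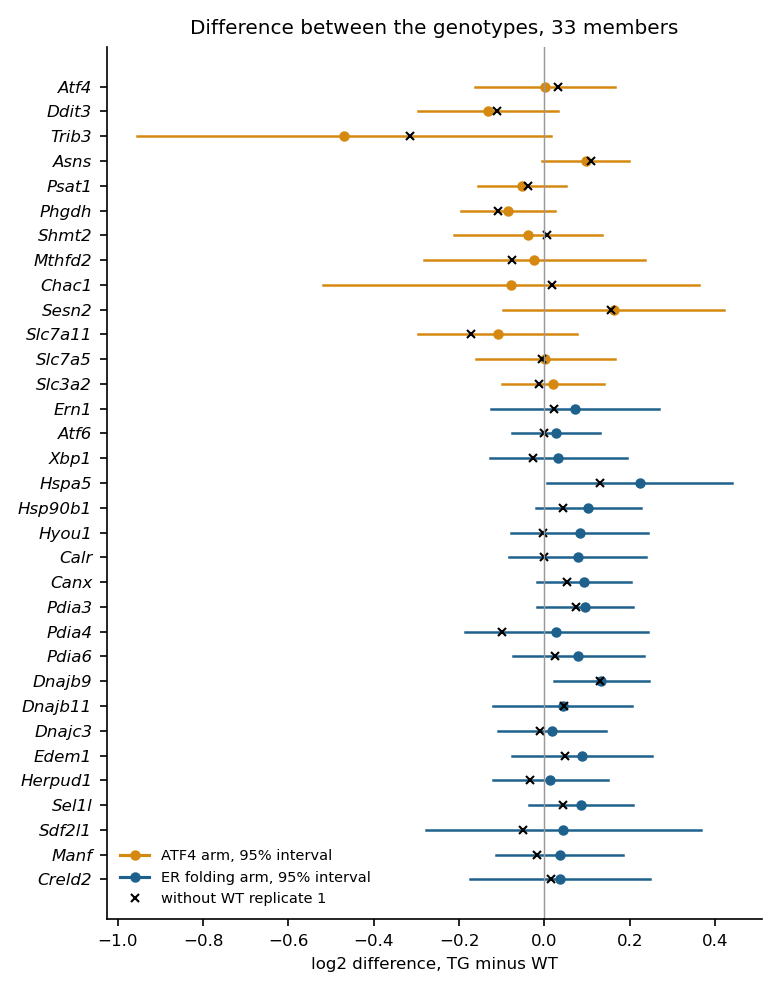
Log2 difference between TG and WT mice for the 33 genes with the 95% interval from limma (ATF4 arm, orange; ER folding arm, blue), and the same difference without WT replicate 1 (crosses). All 20 points of the ER folding arm lie above 0, of which 9 lie below 0 without WT replicate 1, and only the intervals of Hspa5 and Dnajb9 leave out 0.

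Of the ER chaperones, Hspa5 (ENSMUSG00000026864, chr2:34771970-34777547, + strand), which encodes BiP, the main chaperone of the ER lumen and the protein that holds the stress sensors inactive, had the largest difference. It had 9350.1, 7831 and 8286 normalized read counts in TG replicates 1 to 3 and 6373, 8524 and 7027 in WT replicates 1 to 3, or 8489 ± 779.8 in TG and 7308 ± 1103 in WT mice (mean ± SD, n = 3 each). WT replicates 1 and 3 lay below every TG library, and WT replicate 2 lay above TG replicates 2 and 3. The difference was 0.22 (SE 0.10, 95% interval 0.01 to 0.44, unadjusted P = 0.0453 by limma), or 1.17-fold. It was 0.13 without WT replicate 1 and 0.15 without TG replicate 1.

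Hsp90b1 (ENSMUSG00000020048, chr10:86690209-86705509, - strand), which encodes the ER paralog of the HSP90 chaperone, had 6883, 6909 and 6977 normalized read counts in TG and 5939.9, 6842 and 6594 in WT mice. All 3 TG libraries lay above all WT libraries, but WT replicate 2 was close to them. The difference was 0.10 (SE 0.06, unadjusted P = 0.0924 by limma; exact permutation P = 0.1), and 0.04 without WT replicate 1. Exons of a pseudogene on the opposite strand, 1810014B01Rik, cover 10.3% of its exon length.

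The remaining chaperones followed the order of the WT libraries seen for Hspa5. Calr, a lectin chaperone that also buffers calcium in the ER, had 12604, 11819.8 and 12190.2 in TG and 10375, 12951 and 11495 in WT mice. WT replicate 2 was the highest and WT replicate 1 the lowest of the 6, and the difference of 0.08 was below 0, by less than 0.01, without WT replicate 1. Its membrane-bound relative Canx had 10397, 10808 and 10829.9 in TG and 9467, 10448 and 10148 in WT mice, with a difference of 0.09 (SE 0.05). Here TG replicate 1 lay below WT replicate 2. Hyou1, an exchange factor and chaperone that works with BiP, had 3882, 3612 and 3842 in TG and 3161, 3915 and 3665 in WT mice, and its difference of 0.08 turned negative without WT replicate 1.

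The protein disulfide isomerases form and shuffle disulfide bonds in folding proteins. Pdia3 lay at 5538 to 5877 in TG and 5150.2 to 5631 in WT mice (0.10, SE 0.05) and Pdia6 at 2925 to 3190.2 in TG and 2686 to 3233 in WT mice (0.08, SE 0.07). Pdia4 had 1242, 1221 and 1213 normalized read counts in TG and 1007, 1387 and 1244 in WT mice. The TG libraries lay within the spread of the WT libraries, which ran from the lowest to the highest of the 6, and the difference was 0.03, or -0.10 without WT replicate 1.

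The J-domain proteins hand substrates to BiP. Dnajb9 (ENSMUSG00000014905, chr12:44205559-44210326, - strand), which encodes ERdj4, a target of XBP1 and a repressor of IRE1, had 1112, 1118 and 1118 normalized read counts in TG replicates 1 to 3 and 1013, 1017 and 1023 in WT replicates 1 to 3, or 1116 ± 3.52 in TG and 1017 ± 5.11 in WT mice (mean ± SD, n = 3 each). The groups were clear of each other and the mice of a genotype nearly alike. The SD was 0.315% of the mean in TG and 0.502% in WT mice, while the counting error of 885 to 1296 reads is 2.78% to 3.36%, which is more than the spread that was seen. The SE from limma, which also draws on the spread of other genes, is accordingly larger than these 3 values per group alone would give. The difference was 0.13 (SE 0.05, 95% interval 0.02 to 0.24, unadjusted P = 0.0234 by limma; exact permutation P = 0.1), or 1.1-fold, and lay between 0.13 and 0.14 when each library was left out in turn. Dnajb11 lay at 1363 to 1692 in TG and 1437 to 1503 in WT mice (0.04) and Dnajc3, which also inhibits eIF2 kinases, at 1756 to 1953 in TG and 1738 to 1887 in WT mice (0.02). In both, the groups overlapped and TG replicate 1 was the highest library, and without it the differences were -0.04 and -0.03.

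The sensors and their transcription factor overlapped between the genotypes. Ern1 had 474, 528 and 531 normalized read counts in TG and 453, 462 and 547 in WT mice, with WT replicate 3 above all TG libraries and a difference of 0.07 (SE 0.09). Atf6 lay at 3749.6 to 3924 in TG and 3612 to 3865 in WT mice (0.03, 95% interval -0.08 to 0.13). Xbp1 had 2271, 1973 and 1982 in TG and 1867, 2039 and 2182 in WT mice, where TG replicate 1 and WT replicate 3 were the high libraries, and its difference of 0.03 turned negative without TG replicate 1 or without WT replicate 1. The table counts reads per gene, so that the spliced and unspliced forms of Xbp1 could not be separated.

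ER-associated degradation returns misfolded proteins to the cytosol. Sel1l, the adaptor of the HRD1 ubiquitin ligase, had 6992, 6902 and 7319.6 normalized read counts in TG and 6284, 7146 and 6591 in WT mice (0.09, SE 0.05). WT replicate 2 lay among the TG libraries and the other 2 below them. Edem1, which recognizes misfolded glycoproteins, lay at 746 to 864 in TG and 708 to 803 in WT mice (0.09, SE 0.07). Herpud1, an ER membrane protein of the same complex, lay at 1336 to 1457 in TG and 1279.5 to 1419 in WT mice and had the smallest difference of the arm (0.01, 95% interval -0.12 to 0.15).

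The secreted and small luminal stress proteins overlapped between the genotypes as well. Sdf2l1, a partner of the J-domain proteins, had 282, 192 and 229 normalized read counts in TG and 197, 253 and 227 in WT mice, so that the TG libraries held both the highest and the lowest value. Manf, a secreted protein that supports dopamine neurons, lay at 869 to 952 in TG and 816 to 926 in WT mice (0.04), and Creld2 at 459 to 554 in TG and 449.6 to 545 in WT mice (0.04). TG replicate 1 was the highest library for all 3, and the differences of all 3 were negative without it. Exons of Dcaf1 and of 4930524O07Rik, both on the opposite strand, overlap 4.14% and 4.71% of the exon length of Manf. Exons of Rbm15b on the same strand overlap 0.397% of it.

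**Figure D4:**
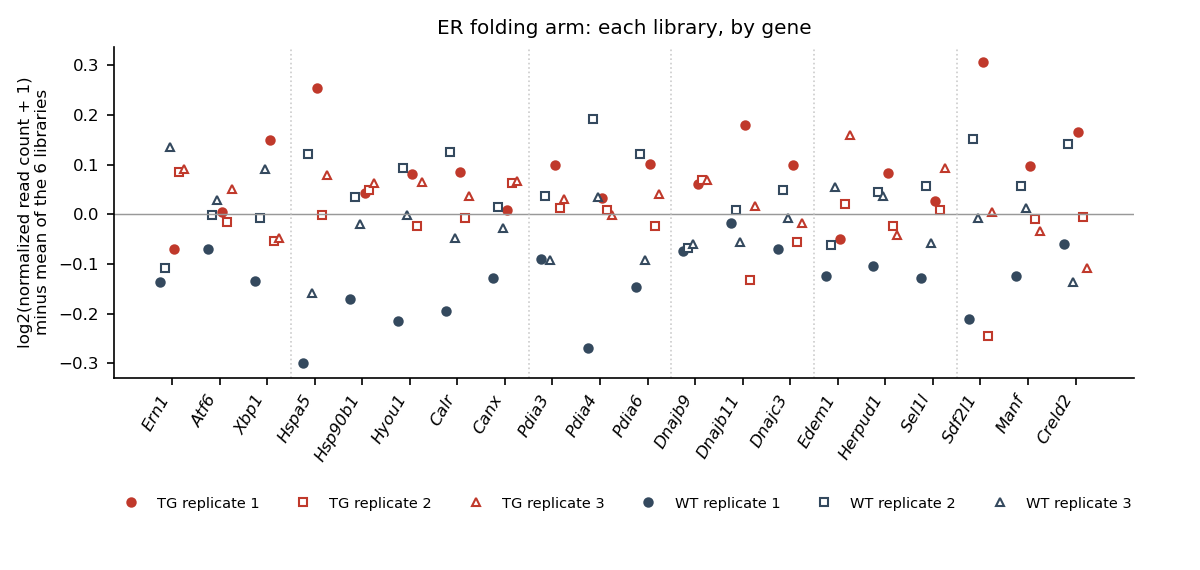
The 20 genes of the ER folding arm, each library as log2(normalized read count + 1) minus the mean of the 6 libraries; red, TG; dark blue, WT; filled circles are replicate 1, and dotted lines part the roles. WT replicate 1 is below 0 for all 20 genes and the lowest library for 16, and Hsp90b1 and Dnajb9 are the 2 genes whose groups do not overlap, both with TG mice higher, against 5.06% of all genes tested.

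The shared direction of the arm came with a low WT library and a high TG library. WT replicate 1 lay below the mean of the 6 libraries for 20 of 20 genes and was the lowest library for 16 of 20, all but Pdia3, Dnajb11, Sdf2l1 and Creld2. Over all genes tested it was below that mean for 49.3% and the lowest for 16.5%. TG replicate 1 lay above that mean for 18 of 20 genes and was the highest library for 9 of 20. Over all genes tested it was above that mean for 50.7% and the highest for 17.8%. The median over the 20 genes, relative to the mean of the 6 libraries on the log2 scale, was -0.13 in WT replicate 1, 0.05 in WT replicate 2 and -0.01 in WT replicate 3. In TG replicates 1, 2 and 3 it was 0.09, -0.01 and 0.04, so that WT replicate 2 was above 2 of the 3 TG libraries. The 2 libraries farthest apart, WT replicate 1 and TG replicate 1, were those with the fewest and the most reads on genes. TG replicate 2 had 27858248 reads. Over all genes tested the medians of the 6 libraries were all 0.00. In WT replicate 1 the summed medium spiny neuron markers, 132082, were the lowest of the WT libraries and the summed endothelial markers, 10267, the highest of the 6, and its choroid plexus markers, 8439, lay within the range of the other WT libraries. In TG replicate 1 the summed choroid plexus markers, 28666, were the highest of the 6 and the summed medium spiny neuron markers, 109199, the lowest. The part of depth and of these markers in the pattern was not tested. Without WT replicate 1 the median difference of the arm was 0.02, and without TG replicate 1 it was 0.05.

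In the ATF4 arm WT replicate 1 was not low. It was the lowest library for 1 of 13 genes, Slc3a2, and the highest for 3, and its median was 0.00. TG replicate 1 had the highest median of both arms, 0.08 in the ATF4 arm and 0.09 in the ER folding arm. The difference between the arms was not tested.

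**Figure D5:**
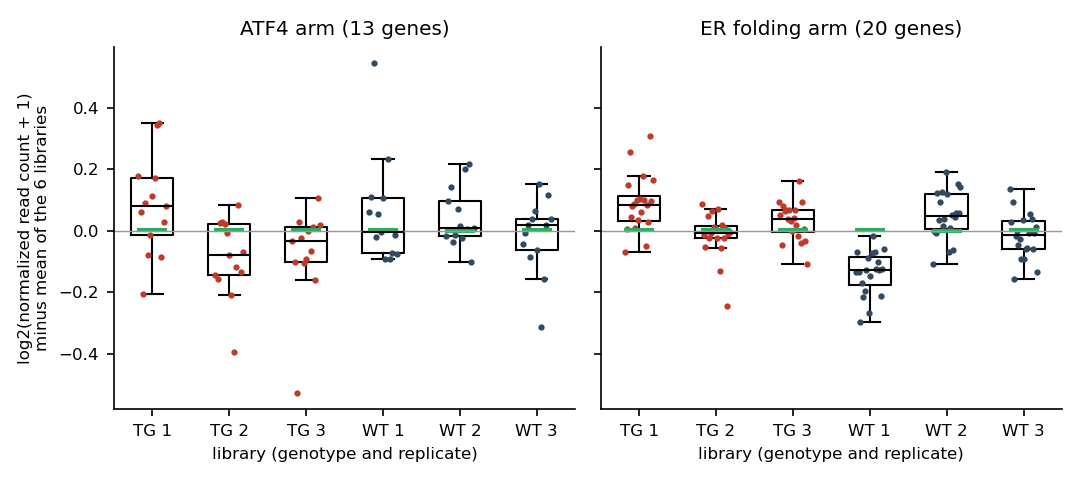
Each library's genes as log2(normalized read count + 1) minus the mean of the 6 libraries, for the ATF4 arm (left) and the ER folding arm (right); points are genes, boxes show the median and quartiles with whiskers to the farthest gene within 1.5 box lengths, and green bars are the median of all 17605 genes. The box of WT replicate 1 lies below 0 in the ER folding arm, with a median of -0.13, but straddles 0 in the ATF4 arm.

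The genes with and without the DNA elements were set side by side, with no test. The 9 ER folding genes with ERSE or ERSE-II had a median difference of 0.08 (range 0.01 to 0.22), and the 8 with a window but without any of the 3 elements had one of 0.08 (range 0.03 to 0.13). WT replicate 1 was the lowest library for 7 of the 9 and for 6 of the 8. The 4 ATF4 arm genes with CARE, Trib3, Asns, Chac1 and Slc7a11, had a median difference of -0.09 with 1 of 4 positive. The 8 with a window but without any of the 3 elements had one of -0.03 with 3 of 8 positive.

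For 17 of 20 ER folding genes and 7 of 13 ATF4 arm genes, the 95% interval of the difference lay within a 1.2-fold change in either direction. The median half-width was 0.16 on the log2 scale in each arm. The intervals that reached beyond it were those of Hspa5, Ern1 and Sdf2l1 in the ER folding arm and of Ddit3, Trib3, Chac1, Sesn2, Mthfd2 and Slc7a11 in the ATF4 arm.

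The genes around these programs were examined as 7 further lists with 103 genes, of which 100 passed the filter. None passed an adjusted P value of 0.05 by limma, 59 were higher and 41 lower in TG mice, and the median difference was 0.02. Of these genes 2 were higher and 1 lower at an unadjusted P value under 0.05, against the 1.98% and 2.33% of all genes tested. The groups did not overlap for 15 of them, 10 with TG mice higher and 5 lower, against 5.06% and 5.05% of all genes tested.

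Among the kinases and controllers of eIF2, 9 of 14 genes were higher. Impact, which restrains the amino acid sensing kinase GCN2, had 7259, 7606 and 7382 normalized read counts in TG and 6495, 6729.9 and 6636 in WT mice. Every TG library lay above every WT library by a clear margin, and the difference was 0.16 (SE 0.04, unadjusted P = 0.00331 and adjusted P = 0.971 by limma). Among the lower genes of that list, the interferon-induced kinase Eif2ak2 had the smallest P value (-0.13, SE 0.11, unadjusted P = 0.257 by limma). A list of 6 genes held bZIP partners of ATF4 and the stress protein Nupr1, which is not a bZIP factor. Of these 6, 1 was higher, Cebpg (0.01), and the median difference was -0.02. Without WT replicate 1, 4 of the 6 were higher, and without TG replicate 1, 1 of the 6. Nupr1 was lower in all TG libraries, with 139, 133 and 119 in TG and 188, 147 and 142 in WT mice (-0.28, SE 0.13).

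Among 19 further ATF4 targets of amino acid and folate metabolism that passed the filter, 9 were higher and 10 lower. Bcat1, the cytosolic branched-chain aminotransferase, had 2170.0, 2046 and 2099 normalized read counts in TG and 1758, 1918 and 1856 in WT mice. The groups did not overlap, and the difference was 0.19 (SE 0.05, unadjusted P = 0.00393 and adjusted P = 0.971 by limma). Cbs, which makes cystathionine from homocysteine and serine, had the smallest P value of those that were lower (-0.15, SE 0.07). Gdf15 and Fgf21, hormones that stressed cells secrete, did not reach a mean of 10. The aminoacyl-tRNA synthetases, which load tRNA with amino acids, and the tRNA exporter were higher in 11 of 13 cases, with a median of 0.04. Without TG replicate 1, 8 of 13 were higher, and without WT replicate 1, 10 of 13. The leucyl-tRNA synthetase Lars had the smallest P value (0.11, SE 0.05, unadjusted P = 0.0554 by limma), and Wars had that of the 2 lower genes (-0.02).

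On the side of the ER, 12 of 18 further genes of ER-associated degradation and 13 of 20 further folding enzymes were higher, with medians of 0.04 and 0.02. Ube2j1 (0.08) and Ube2g2 (-0.05), ubiquitin-conjugating enzymes of that pathway, had the smallest P values in each direction of the first list. Dnajc10, a disulfide reductase (0.10), and Sil1, an exchange factor of BiP (-0.11), had them in the second. WT replicate 1 was the lowest library for 5 of the 18 and 9 of the 20 genes, against 16 of the 20 genes of the ER folding arm. Without WT replicate 1, 11 of 18 and 12 of 20 were higher.

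Of the 10 further sensors and effectors that passed the filter, 4 were higher and 6 lower. Bax, the mitochondrial effector of apoptosis that also binds IRE1, had 667, 659 and 624 normalized read counts in TG and 801, 776 and 763 in WT mice. All TG libraries lay far below all WT libraries, and the difference of -0.26 (SE 0.06, 95% interval -0.40 to -0.13, unadjusted P = 0.00128 and adjusted P = 0.971 by limma) was larger in size than that of any of the 20 ER folding genes. Traf2, the adaptor that joins IRE1 to JNK signaling, was the higher gene with the smallest P value (0.15, SE 0.10).

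Marker genes of other cell types were summed as a check of what the tissue held, and none was at 0 in all libraries. All 9 choroid plexus markers tested were higher in TG mice, with a median of 0.86, and 8 of them passed the filter without TG replicate 1, of which 5 were higher, with a median of 0.22. All 7 markers of meninges and fibroblasts were lower, with summed normalized read counts of 2589 in TG replicate 1, 1295 to 1423 in the other TG libraries and 1703 to 2447 in WT mice. All 8 microglial markers were lower, with a median of -0.11. Their sums did not overlap, at 11173 to 12059 in TG and 12103 to 12667 in WT mice. For 3 of the 8, every TG library lay below every WT library, against 5.05% of all genes tested. The part of these markers in the values of the 33 genes was not tested. Astrocyte markers were higher in 4 of 8 cases, oligodendrocyte markers in 3 of 8 and endothelial markers in 3 of 8. Medium spiny neuron markers were higher in 1 of 8 cases and cortical excitatory neuron markers in 3 of 7. Without TG replicate 1 these counts were, in the same order, 1, 1, 2, 5 and 3. The median of the medium spiny neuron markers was -0.13 with all 6 libraries and 0.02 without TG replicate 1.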

How the data were processed

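Striatal RNA of 6 mice, 1 library each, was sequenced as paired-end reads. Trimming with Trimmomatic 0.35, alignment to GRCm38 with TopHat2 2.1.0 and counting per gene with HTSeq were done by the authors. The deposited signal is the count of a gene divided by the DESeq2 size factor of its library. Neither the strand setting nor the annotation release is given in the sources used here. Whole reads were recovered for 100% of values (tolerance 0.01).

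Genes were named, and exon lengths taken as the union of exons, from GENCODE M21. Differences were tested with limma 3.58.1 (mean-variance trend, two-sided) on log2(value + 1) over genes averaging 10 or more, adjusted by Benjamini-Hochberg over all of them at 0.05. For low genes such fold changes are understated. edgeR 4.0.16 (quasi-likelihood) and DESeq2 1.42.0 were run on the recovered reads, and limma with TMM scaling, voom, pseudocounts of 0.5 and 5, no filter, a minimum of 50, a replicate block and each library left out. Fits were tested on simulated data. The text names the 33 genes, Shank3, the smallest P value per direction of every further pathway list and abundant markers, and also Gdf15 and Fgf21, chosen after their values were seen. The 33 genes and all lists were chosen with earlier results of these data known.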

Additional observations from a re-analysis of the deposited data

How the results depend on the processing

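Under 15 other settings 0 of 494 member values passed an adjusted P value of 0.05, and the smallest was 0.658, without TG replicate 1. With other scalings, tools, pseudocounts and filters no member changed sign. The count of ER folding genes at an unadjusted P value under 0.05 was 2, and 1 with edgeR, with DESeq2, with a mean of at least 50 and with the replicate block. When each library was left out it ranged from 0 to 6, the highest without WT replicate 2, and that of the ATF4 arm from 0 to 2. The count of genes higher in TG mice, a quantity added after the data were seen, ranged from 11 to 20 of 20 in the ER folding arm, with 11 without WT replicate 1 and 13 without TG replicate 1, and from 2 to 7 of 13 in the ATF4 arm, with 2 without TG replicate 1. Without WT replicate 1, 9 ER folding genes and 4 ATF4 arm genes changed sign, and without TG replicate 1, 7 and 3. The cause was not tested.

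The labels do not say whether the replicate numbers pair the mice, and the correlations below cannot settle it with 3 libraries per genotype. The correlations over genes of the deviations of same-numbered libraries were 0.05, 0.02 and 0.09. Those of differently numbered libraries ran from -0.12 to 0.08. Of the 3 TG libraries 1, replicate 3, correlated best with its own number. The replicate block changed no call at an adjusted P value of 0.05. With 3 mice per genotype the median half-width of the 95% interval was 0.16 on the log2 scale in each arm.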
